A study of Mus musculus with 3 samples.

Results

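Transcript levels of 9 genes that write and erase DNA methylation were described in melan-a cells, an immortalized mouse melanocyte line, given no treatment beyond their culture medium. The genes are named by symbol, by their role, and no threshold on their values entered the rule. They are the DNA methyltransferase genes *Dnmt1*, *Dnmt3a*, *Dnmt3b* and *Dnmt3l*, the maintenance factor *Uhrf1*, the dioxygenase genes *Tet1*, *Tet2* and *Tet3*, and the glycosylase gene *Tdg*. All 9 were found among the 22698 genes with a deposited value.

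The study had a single group of 3 RNA-seq libraries, labelled 1, 3 and 4 and described as bioreplicates. According to the labels, the melanocytes are on the C57BL/6J background, come from Ink4a-ARF-/- mice, and were cultured with 10% serum, 200 nM 12-O-tetradecanoylphorbol 13-acetate (a phorbol ester) and 200 pM cholera toxin. Every library thus shares the deletion and both agents, there is no control group, and no source used here says whether the bioreplicates are separate cultures. Levels are FPKM, reads per kilobase of gene scaled to library size, which the authors normalized between libraries with TMM (trimmed mean of M values) factors. In RNA from a whole culture, fewer cells with a transcript and less of it per cell cannot be told apart.

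All 7 melanocyte markers were above the level of 1 FPKM in every library, from *Mitf*, the lineage transcription factor, at 22.1 ± 4.7 FPKM (SD, n = 3) to *Tyrp1*, a melanin synthesis enzyme, at 3144 ± 434 FPKM. Summed marker levels were 0.36 to 0.70 FPKM for keratinocytes, 1.44 to 1.83 for fibroblasts and 0.01 for endothelium. They were 0.76 to 1.60 for immune cells and 0 to 0.02 for pluripotent and germ cells. *Col1a1*, a fibroblast marker, was above 1 FPKM in every library, at 1.51, 1.77 and 1.33 FPKM in replicates 1, 3 and 4. *Cd68*, an immune marker, had 1.20, 0.76 and 1.60 FPKM. *Ptprc*, *Lum*, *Pou5f1* and *Dppa3* were listed at 0 in all libraries. The scaled library sizes, recovered from the steps between low values, were 53900000, 47100000 and 66100000 reads for replicates 1, 3 and 4. Read numbers given below are estimates from these sizes and the joined exons of each gene.

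Cytosine methylation at CpG sites is laid down by DNMT3A and DNMT3B and copied after replication by DNMT1, which UHRF1 brings to the half-modified CpGs behind the fork. TET proteins oxidize 5-methylcytosine, and TDG cuts out the oxidized bases so that base excision repair can restore cytosine. In somatic cells promoter methylation keeps many germline genes and repeats silent.

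Of the 9 genes, 5 were listed at 1 FPKM or more in all 3 replicates, namely *Dnmt1*, *Uhrf1*, *Dnmt3a*, *Tet3* and *Tdg*. Of all 22698 genes, 44.1% reached that level, a background share that the members did not clearly exceed. At 10 FPKM or more in all replicates were *Dnmt1* and *Uhrf1*, beside 21.7% of all genes. The median level over the 9 genes was 4.04 FPKM, against 0.28 FPKM over all genes and 11.2 FPKM over the genes at 1 FPKM or more in every replicate. By mean level the order was *Dnmt1*, *Uhrf1*, *Dnmt3a*, *Tet3*, *Tdg*, *Tet2*, *Tet1*, *Dnmt3b* and *Dnmt3l*, and this order was the same in each of the 3 replicates.

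**Figure D1:**
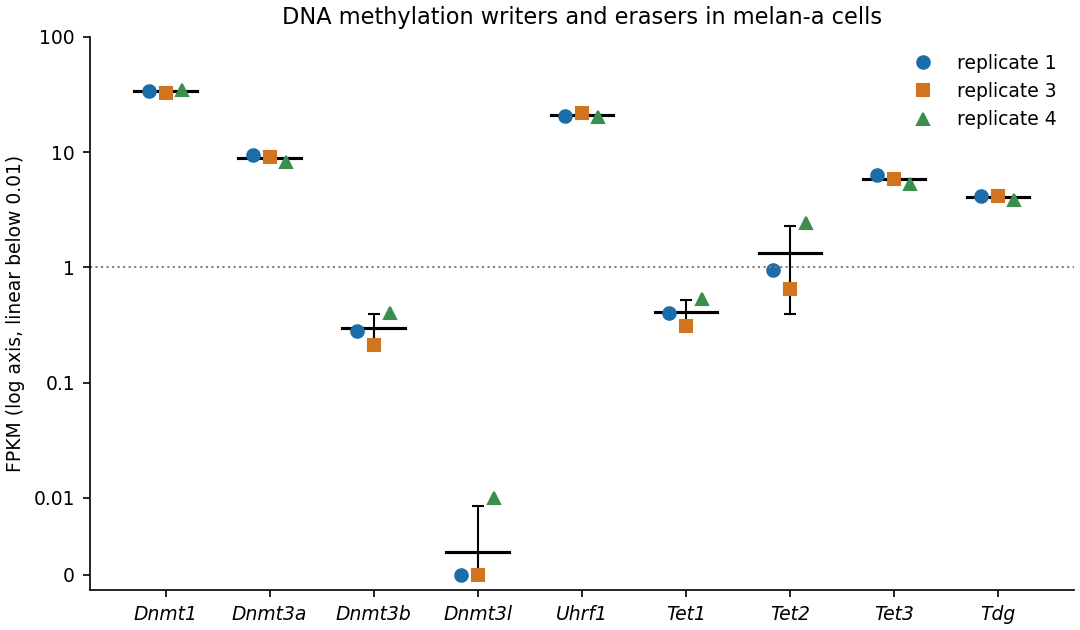
FPKM of the 9 genes (vertical axis logarithmic, linear below 0.01) in replicates 1, 3 and 4, with horizontal lines for the mean and bars for the SD of 3 replicates, cut at 0. The dotted line marks 1 FPKM, and the replicates of *Tet2* lie on both sides of it, at 0.95, 0.65 and 2.43 FPKM.

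*Dnmt1*, which encodes the maintenance methyltransferase, had the highest level of the 9. Its gene (ENSMUSG00000004099) occupies positions 20711650 to 20757317 of chromosome 9 in mm9, minus strand. In replicates 1, 3 and 4 it had 33.86, 32.22 and 34.83 FPKM, a mean of 33.6 ± 1.3 FPKM (SD, n = 3). These values came from an estimated 9607, 7988 and 12119 reads. They placed *Dnmt1* at rank 2039 of 22698, above 91% of all genes. The 3 libraries lay close together, with an SD of 0.06 on the scale of log2(FPKM + 0.1), against a median of 0.15 over the 2758 genes within a factor of 2 of its level. After removal of a trend with GC content between the replicates, described below, its values were 33.80, 30.04 and 37.85 FPKM. The SD of *Dnmt1* on the same log2 scale was then 0.17. The median of 0.15 comes from uncorrected values and was not computed after the correction.

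*Uhrf1* encodes the protein that recognizes half-methylated CpGs and recruits DNMT1. The gene (ENSMUSG00000001228) occupies chromosome 17, positions 56442744 to 56462909, plus strand. It had 20.49, 21.81 and 20.04 FPKM in replicates 1, 3 and 4, a mean of 20.8 ± 0.9 FPKM (SD, n = 3), at rank 3171. The level of *Dnmt1* exceeded that of *Uhrf1* in 3 of 3 replicates, by ratios of 1.65, 1.48 and 1.74. The mean difference was 0.69 ± 0.12 on the scale of log2(FPKM + 0.1). A processed copy of *Uhrf1* limits the precision of this value. A stretch of the X chromosome (118447609 to 118450192 in mm9), annotated as the pseudogene *Gm5648*, matches 71.9% of the bases of its longest coding transcript at 97.7% identity. Reads that fit both places cannot be assigned to one, and how they were counted is not given in the sources used here.

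For each of 12 pairs of related genes, the log2 ratios within replicates were tested with an exact sign-flip permutation test (two-sided). With 3 replicates this exact permutation test cannot go below p = 0.25, which every one of the 12 pairs reached, also after Benjamini-Hochberg adjustment. A pair is therefore called separated here only by a descriptive rule, when 3 of 3 replicates share the direction and the mean log2 ratio exceeds 2 SD of the ratios. All 12 pairs met it. Among them are *Dnmt1*, *Dnmt3a* and *Dnmt3b* over *Dnmt3l*, a gene at or near 0 FPKM. The size and SD of those ratios depend on the 0.1 added, so for them only the direction is informative. Every p-value and SD covers only the spread between these 3 libraries.

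The de novo methyltransferase genes were unequal. *Dnmt3a* (ENSMUSG00000020661; chromosome 12, positions 3806007 to 3914443, plus strand) had 9.46, 9.12 and 8.12 FPKM in replicates 1, 3 and 4. Its mean of 8.90 ± 0.70 FPKM (SD, n = 3) stood at rank 5719. *Dnmt3b*, whose product methylates pericentromeric repeats and early embryonic targets, is ENSMUSG00000027478 on chromosome 2, positions 153475186 to 153513466, plus strand. It had 0.28, 0.21 and 0.40 FPKM, a mean of 0.297 ± 0.096 FPKM, at rank 11285. All *Dnmt3a* values lay above all *Dnmt3b* values. The level of *Dnmt3a* exceeded that of *Dnmt3b* by 33.8, 43.4 and 20.3 times in replicates 1, 3 and 4, with a mean log2 difference of 4.53 ± 0.44.

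*Dnmt3b* was low but was measured, with an estimated 77, 51 and 135 reads. The 95% exact Poisson intervals, which cover counting error only, ran from 0.22 to 0.35 FPKM in replicate 1, from 0.16 to 0.28 in replicate 3 and from 0.34 to 0.47 in replicate 4. The intervals of replicates 3 and 4 do not overlap. The pseudogene *Gm14490*, also on chromosome 2, shares with it 3 stretches of 121 to 191 bases at 98.3% to 100% identity, together 10% of the longest coding transcript.

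*Dnmt3l* encodes a cofactor of the de novo enzymes that has no catalytic activity and is known from germ cells and embryonic stem cells. The gene (ENSMUSG00000000730) occupies chromosome 10, positions 77504692 to 77526367, plus strand, and exons of *Aire* on the opposite strand overlap 2.24% of its exon bases. It was listed at 0 in replicates 1 and 3 and at 0.01 FPKM in replicate 4, an estimated 2 reads. In each replicate this is below the value of 3 reads, which is 0.019, 0.021 and 0.015 FPKM in replicates 1, 3 and 4. Its transcript was not detectable at this depth, and no fold against it is given, since the fitted ratio depends on the 0.1 added before taking logarithms.

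Within the summed level of the 4 DNMT genes, *Dnmt1* made up 77.7%, 77.6% and 80.3% in replicates 1, 3 and 4. *Dnmt3a* made up 20.8% ± 1.8 (SD, n = 3) and *Dnmt3b* 0.69% ± 0.21. These shares depend on the gene length used. The joined exons of *Dnmt3a* come to 16642 bases over 18 annotated transcripts, whereas its longest coding transcript has 9685. Per length of that transcript the level of *Dnmt3a* was 15.3 ± 1.2 FPKM, and the log2 ratio of *Dnmt1* over *Dnmt3a* fell from 1.91 to 1.13 without changing its direction. Gene-level values do not separate the long and short forms of *Dnmt3a*, which start at different promoters.

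The promoters of the DNMT and TET genes differ in their content of CpG, the dinucleotide that these enzymes act on. RefSeq (GRCm38.p6) gives 16 promoters for the 9 genes, counted here over the 250 bases before each transcription start, and several genes have more than one. Printed below are those of *Dnmt1* (the most CpG-rich of its 3), of *Dnmt3b* and *Dnmt3l* (the low paralogs, for *Dnmt3l* the first of 3), and of *Tet2* (the most CpG-rich of the 16). Each runs 5′ to 3′ on the strand of its gene, with every CpG in capitals.
*Dnmt1*, chr9:20952624-20952873, minus strand: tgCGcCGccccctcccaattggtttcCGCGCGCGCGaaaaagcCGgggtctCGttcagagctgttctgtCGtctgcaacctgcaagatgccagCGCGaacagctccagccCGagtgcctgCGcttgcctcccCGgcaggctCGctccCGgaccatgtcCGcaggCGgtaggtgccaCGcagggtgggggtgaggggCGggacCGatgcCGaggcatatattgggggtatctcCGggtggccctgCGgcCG
*Dnmt3b*, chr2:153649199-153649448, plus strand: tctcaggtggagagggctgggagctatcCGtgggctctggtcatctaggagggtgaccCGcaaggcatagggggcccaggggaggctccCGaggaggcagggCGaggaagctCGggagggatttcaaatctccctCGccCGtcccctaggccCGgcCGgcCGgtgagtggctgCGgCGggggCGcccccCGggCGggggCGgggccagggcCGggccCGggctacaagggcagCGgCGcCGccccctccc
*Dnmt3l*, chr10:78042037-78042286, plus strand: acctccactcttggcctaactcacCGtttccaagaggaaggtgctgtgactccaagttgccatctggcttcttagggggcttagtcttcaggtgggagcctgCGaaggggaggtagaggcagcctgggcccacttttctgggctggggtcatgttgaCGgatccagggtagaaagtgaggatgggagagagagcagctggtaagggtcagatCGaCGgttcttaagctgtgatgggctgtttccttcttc
*Tet2*, chr3:133544391-133544640, minus strand: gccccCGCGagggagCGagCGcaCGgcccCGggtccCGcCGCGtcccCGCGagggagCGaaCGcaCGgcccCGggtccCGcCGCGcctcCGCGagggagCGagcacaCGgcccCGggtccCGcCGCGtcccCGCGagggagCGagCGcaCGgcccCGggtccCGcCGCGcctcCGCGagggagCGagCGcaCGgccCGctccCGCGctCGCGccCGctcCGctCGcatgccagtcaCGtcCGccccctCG

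The *Dnmt1* window printed above holds 26 CpGs, and the other *Dnmt1* windows hold 7 and 2. That of *Dnmt3b* holds 21, against a median of 6 over the 32851 promoters of the table. The 3 *Dnmt3l* windows hold 5, 4 and 3 CpGs, and each has fewer than that median. The *Tet2* window holds 51 CpGs, more than 99.9% of all promoters have. Both *Dnmt3b* and *Tet2*, with these CpG-rich windows, were below 1 FPKM in at least 2 replicates. CpG-rich windows also occur in genes above 1 FPKM in every replicate. The windows of *Dnmt3a* hold 38, 40 and 15 CpGs and those of *Uhrf1* 10 and 30. No methylation was measured at these promoters in the files used here. The letters GCCNNNGGC, a form of the TFAP2 consensus, occur in 4 of the 16 windows and in 13.7% of all windows, on either strand. Those 4 are 1 of *Dnmt1*, 2 overlapping ones of *Dnmt3a*, and that of *Tdg*. The study's methods give a shorter consensus for TFAP2A, GCCNNNGG. That form was not counted here, and it also occurs in the printed windows of *Dnmt3b* and *Tet2*. The E-box CACGTG occurs in 3 of the 16 and in 6% of all. Of E2F-type words only TTTGGCGC and TTTCCCGC were counted, and they occur in 0 of the 16 and in 1.3% of all. The related word TTTCGCGC was not counted. It is present in a window of *Uhrf1* and, on the opposite strand, in the printed window of *Dnmt1*.

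Among the TET genes, *Tet3* had the highest level in every replicate. *Tet3* (ENSMUSG00000034832; chromosome 6, positions 83312367 to 83391672, minus strand) encodes the dioxygenase known from the zygote and from many differentiated cells. Its values in replicates 1, 3 and 4 were 6.36, 5.89 and 5.29 FPKM, a mean of 5.85 ± 0.54 FPKM (SD, n = 3), at rank 7007. *Tet1*, known from embryonic stem cells and germ cells, is ENSMUSG00000047146 on chromosome 10, positions 62267318 to 62361866, minus strand. Its values were 0.40, 0.31 and 0.53 FPKM, from an estimated 317, 215 and 515 reads, with a mean of 0.413 ± 0.111 FPKM. *Tet3* exceeded *Tet1* by 15.9, 19.0 and 9.98 times, and no value of one overlapped those of the other.

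*Tet2* encodes the TET enzyme that is often mutated in blood cancers (ENSMUSG00000040943; chromosome 3, positions 133126643 to 133207354, minus strand). Of the 8 members above the value of 3 reads it varied most, with 0.95, 0.65 and 2.43 FPKM in replicates 1, 3 and 4. The mean was 1.34 ± 0.95 FPKM (SD, n = 3), a coefficient of variation of 70.9%. Replicate 4 stood apart from the other two. Its 95% exact Poisson interval of 2.31 to 2.56 FPKM (1478 estimated reads) lay above those of replicate 1 (0.87 to 1.04, 471 reads) and replicate 3 (0.58 to 0.73, 282 reads). *Tet2* remained below *Tet3* and above *Tet1* in all 3 replicates, by 6.69, 9.06 and 2.18 times below and by 2.37, 2.10 and 4.58 times above.

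The mean log2 ratios were 2.24 ± 1.01 for *Tet3* over *Tet2*, 1.32 ± 0.61 for *Tet2* over *Tet1* and 3.55 ± 0.40 for *Tet3* over *Tet1*. The positions beside *Tet2* rest on few libraries. Without replicate 1 the ratios were 2.04 ± 1.35 for *Tet3* over *Tet2* and 1.44 ± 0.80 for *Tet2* over *Tet1*, which no longer met the rule of 2 SD. Without replicate 3, *Tet3* over *Tet2* came to 1.86 ± 1.08 and did not meet it either. The median of the ratios of *Tet2* over *Tet1*, 1.07, was also under 2 SD. Of the summed TET level, *Tet3* made up 82.49%, 85.99% and 64.12% in replicates 1, 3 and 4, while *Tet2* made up 12.3%, 9.49% and 29.5%. The TET sum itself varied less, at 7.60 ± 0.71 FPKM.

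**Figure D2:**
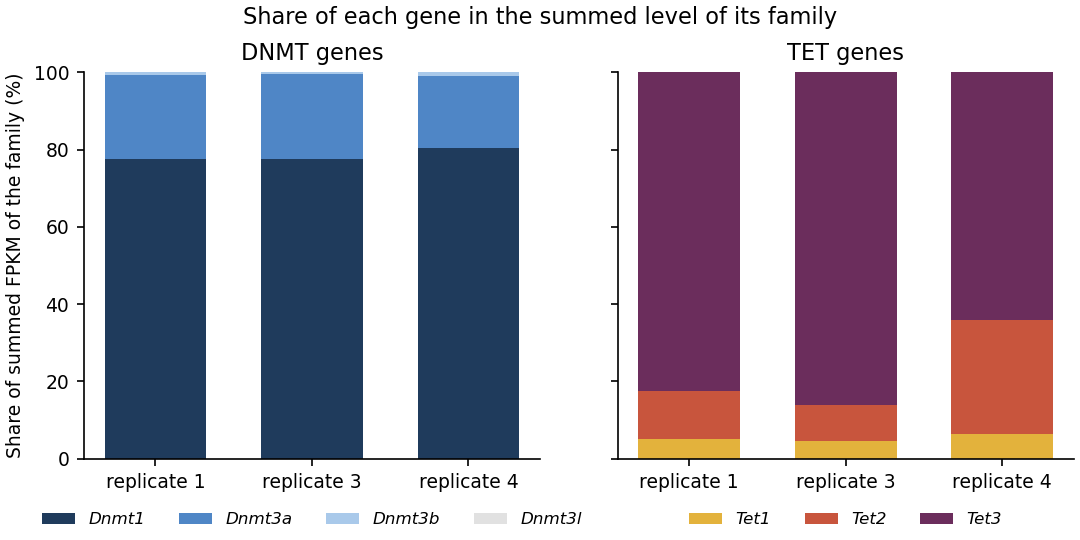
Share of each gene in the summed FPKM of the 4 DNMT genes (left) and the 3 TET genes (right), as stacked bars in percent, 1 bar per replicate. *Dnmt1* takes 77.6% to 80.3% of the DNMT sum in each replicate, whereas *Tet2* takes 29.5% of the TET sum in replicate 4 against 12.3% and 9.49% in the others.

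*Tdg* encodes the glycosylase that removes 5-formylcytosine and 5-carboxylcytosine from DNA. The gene (ENSMUSG00000034674) occupies chromosome 10, positions 82092573 to 82113544, plus strand. It had 4.13, 4.15 and 3.84 FPKM, a mean of 4.04 ± 0.17 FPKM (SD, n = 3), at rank 7905. *Mbd4*, a glycosylase that removes thymine from mismatched CpGs, had 1.14, 0.79 and 1.84 FPKM. *Tdg* was higher by 3.62, 5.25 and 2.09 times, a mean log2 ratio of 1.68 ± 0.62, which became 1.64 ± 0.87 and no longer met the rule of 2 SD without replicate 1.

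Of the 9 genes, *Tdg* has the largest share of its transcript repeated elsewhere. Long matches to its longest coding transcript, at 98.6% to 99.6% identity, lie at 4 other places in mm9, on chromosomes 7, 10, 15 and 19, and together cover 86.4% of its bases. The copy on chromosome 15, annotated as the gene *Gm5806*, was listed at 0.14, 0.15 and 0.09 FPKM. The copy on chromosome 19 overlaps the gene *Lipo1*, listed at 0.20, 0.15 and 0.18 FPKM. Reads that fit several places cannot be assigned to one, so these copies limit the precision of the level and rank of *Tdg*. Opposite-strand exons of *Glt8d2* overlap 6.83% of the exon bases of *Tdg*, and the strand setting of the counting is not given in the sources used here. By contrast, *Dnmt1*, *Dnmt3a*, *Dnmt3l*, *Tet2* and *Tet3* had no match of at least 100 bases and 95% identity outside their own locus, and the single match of *Tet1* covered 0.7% of its transcript.

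Neighbours in the order of all 9 genes were compared by the same rule, an order that was set after the values were seen. *Uhrf1* over *Dnmt3a* came to a mean log2 ratio of 1.22 ± 0.10, *Dnmt3a* over *Tet3* to 0.60 ± 0.03, *Tet3* over *Tdg* to 0.52 ± 0.08 and *Tet1* over *Dnmt3b* to 0.38 ± 0.04, which became 0.38 ± 0.25 after the GC correction and no longer met the rule. *Tdg* over *Tet2* was 1.72 ± 0.97, so these neighbours did not differ beyond their spread, although *Tdg* was higher in 3 of 3 replicates. Without replicate 4 that ratio was 2.26 ± 0.35, and with the median in place of the mean 2.01, and both met the rule. Per length of the longest coding transcript, *Tet3* over *Tdg* turned to -0.06 and *Tdg* over *Tet2* came to 2.32 and met the rule.

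Replicates 3 and 4 differed across the whole table with the GC content of the transcript. Among genes at 1 FPKM or more in every replicate, 93.5% of the 2293 genes with under 45% GC were higher in replicate 4, with a median log2 ratio of 0.47, and 6.7% of the 2327 genes with at least 55% GC, with a median of -0.42. The members with 51.8% to 54.4% GC that passed 1 FPKM, namely *Dnmt1*, *Dnmt3a*, *Uhrf1* and *Tet3*, had log2 ratios of replicate 4 over 3 between -0.17 and 0.11. Between 50% and 55% GC the median over 2744 genes was -0.16, and 25.5% were higher in replicate 4. *Tet1*, at 43.7% GC, had a ratio of 0.62. *Tdg*, at 46.7%, had -0.11. *Dnmt3b*, at 52.5%, had 0.69, from 51 and 135 estimated reads.

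*Tet2*, at 45.4% GC, had a log2 ratio of 1.75. Between 45% and 50% GC the median over 2643 genes was 0.14. Of the 10011 genes at 1 FPKM or more in every replicate, 10 had a ratio as large. *Tet2* itself is not in that set, which leaves out genes below 1 FPKM in any replicate. The count therefore does not cover genes as low as *Tet2* in replicate 3. The SD of *Tet2* between replicates, 0.91 on the log2 scale, was larger than that of 99.1% of the 1819 genes of like level, whose median was 0.22. After removal of the GC trend, *Tet2* had 0.96, 0.72 and 2.21 FPKM and still a log2 ratio of 1.49 between replicates 4 and 3, which 6 of the 10011 genes reached. The ratios of *Tet1* and *Dnmt3b* became 0.30 and 0.81. Those of *Dnmt1*, *Uhrf1*, *Dnmt3a*, *Tet3* and *Tdg* became 0.33, 0.14, -0.05, 0.05 and -0.31. What else differs between the libraries was not tested.

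**Figure D3:**
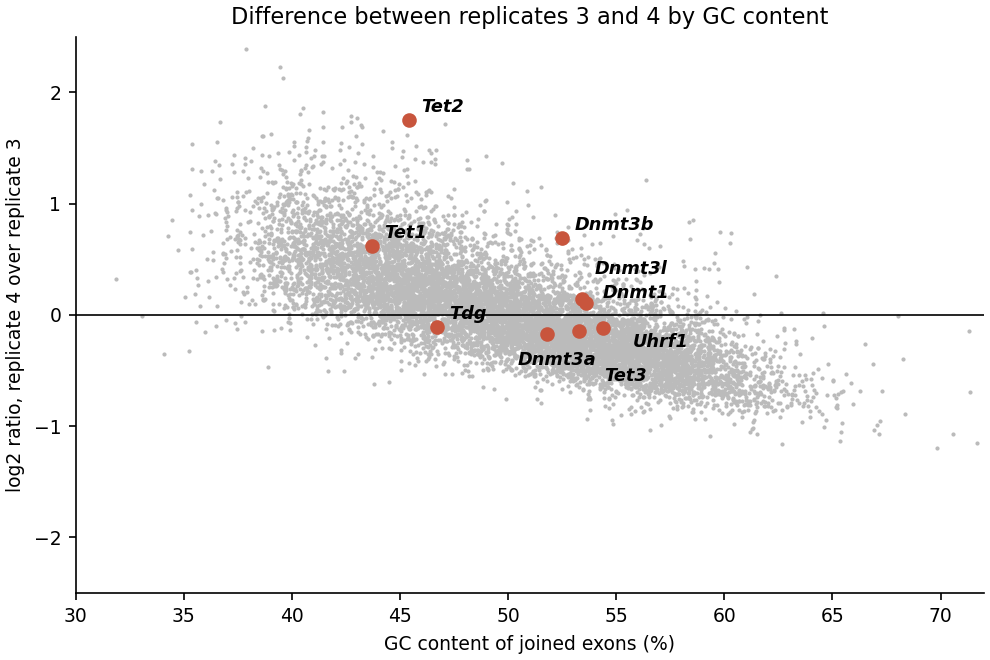
Log2 ratio of replicate 4 over replicate 3 (vertical, on FPKM + 0.1) against the GC content of the joined exons in percent (horizontal). Grey points are genes at 1 FPKM or more in all replicates with a known GC content (10007, of which 1 lies outside the axes), red points the 9 members. The grey cloud falls from left to right, and *Tet2* at 45.4% GC and 1.75 lies above nearly all of it. *Tet2* was below 1 FPKM in some replicates and is not among the grey genes.

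Genes that read, support or complete DNA methylation were taken from lists chosen with earlier results of these data known, and are described by counts at 1 FPKM or more in all 3 replicates, beside the background of 44.1%. Of 8 methyl-CpG readers, 7 reached it, with a median of 10.9 FPKM. *Mbd3*, a subunit of the NuRD complex that does not itself bind methylated CpGs strongly, was the highest at 47.4 ± 11.4 FPKM. *Mbd2*, its methyl-binding paralog, had 37.9 ± 4.7 FPKM. *Mbd4* was the lowest, with 0.79 FPKM in replicate 3. Among the genes of all the pathway lists and the members together that reached 1 FPKM in every replicate, 27 of 31 with under 50% GC were higher in replicate 4 than in replicate 3, and 6 of 29 with 50% or more. These shares, 87.1% and 20.7%, were near those of all genes at that level, 81.1% of 4936 and 16.9% of 5071.

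All 6 partners of maintenance methylation reached 1 FPKM. *Pcna*, the sliding clamp at the replication fork, was the highest at 68.4 ± 2.1 FPKM and *Hells*, a chromatin remodeller required for methylation of repeats, the lowest at 3.55 ± 0.99 FPKM. *Uhrf2*, the paralog of *Uhrf1*, had 10.95, 9.33 and 12.12 FPKM, below *Uhrf1* in 3 of 3 replicates by 1.87, 2.34 and 1.65 times. This order depended on the length used, since the log2 ratio of *Uhrf1* over *Uhrf2* went from 0.94 ± 0.25 to -0.08 ± 0.25 per length of the longest coding transcripts. All 9 proliferation genes were above 1 FPKM, with a median of 25.5 FPKM, between the levels of *Uhrf1* and *Dnmt1*. *Mki67*, a marker of cycling cells, had 24.89, 14.08 and 37.40 FPKM. The replicates of *Mcm2*, a subunit of the replicative helicase and the highest of the list, were ordered the other way, at 49.49, 54.57 and 38.04 FPKM. *Ccnb1*, a mitotic cyclin, was the lowest at 15.4 ± 2.6 FPKM. The coefficient of variation was 3.9% for *Dnmt1* and 4.4% for *Uhrf1*, and from 2.8% to 45.8% over the 9 proliferation genes. These values are not corrected for GC content, which is 46.6% for *Mki67* and 55.5% for *Mcm2*. After the correction *Dnmt1* had 33.9 ± 3.9 FPKM and *Uhrf1* 20.9 ± 1.1 FPKM.

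Of 8 partners and recruiters of de novo methylation, 7 reached 1 FPKM, led by *Trim28*, the KRAB zinc finger corepressor, at 90.3 ± 17.7 FPKM. *Zfp57*, the zinc finger protein that directs TRIM28 to imprinted regions, was listed at 0.02, 0.02 and 0.03 FPKM. Of 3 regulators of TET proteins, *Cxxc5* had 53.2 ± 10.7 FPKM and *Ogt*, the O-GlcNAc transferase bound by TET proteins, 10.66, 8.07 and 22.75 FPKM. The GC content is 42.2% for *Ogt* and 55.1% for *Cxxc5*. *Cxxc4*, a paralog of *Cxxc5*, was listed at 0 in all 3 replicates.

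Among the genes of the cofactor supply of TET enzymes, 4 of 5 reached 1 FPKM. *Idh2*, the mitochondrial isocitrate dehydrogenase, was the highest at 111 ± 6 FPKM. Of 11 base excision repair genes, 9 reached it, from *Xrcc1*, the ligase scaffold, at 30.3 ± 4.2 FPKM downwards. The 2 that did not were *Neil2*, a glycosylase, at 0.840 ± 0.177 FPKM, and *Mbd4*, which belongs to the readers as well. Of 5 deaminase and GADD45 genes, 3 reached it. *Gadd45a* was the highest at 21.7 ± 2.3 FPKM, and *Apobec1* had 0.95, 0.98 and 1.42 FPKM.

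Of 8 genes of the S-adenosylmethionine cycle, which makes and recycles the methyl donor, 7 reached 1 FPKM. *Mat2a*, the synthetase of most tissues, was the highest at 35.5 ± 10.5 FPKM, while *Mat1a*, the synthetase of liver, was listed at 0 in all replicates. *Trdmt1*, a relative of the DNA methyltransferases that methylates tRNA, had 3.13 ± 0.66 FPKM.

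The last list held 10 germline genes that are known to be kept off in somatic cells by promoter methylation. None reached 1 FPKM, and the highest single value was 0.02 FPKM, in *Dazl*, *Ddx4* and *Tex101*. In all replicates 6 were listed at 0, namely *Sycp1*, *Mael*, *Asz1*, *Stk31*, *Hormad1* and *Tdrd1*, as were 31.4% of all genes. The files hold no methylation data, so the state of their promoters is not known from them.

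**Figure D4:**
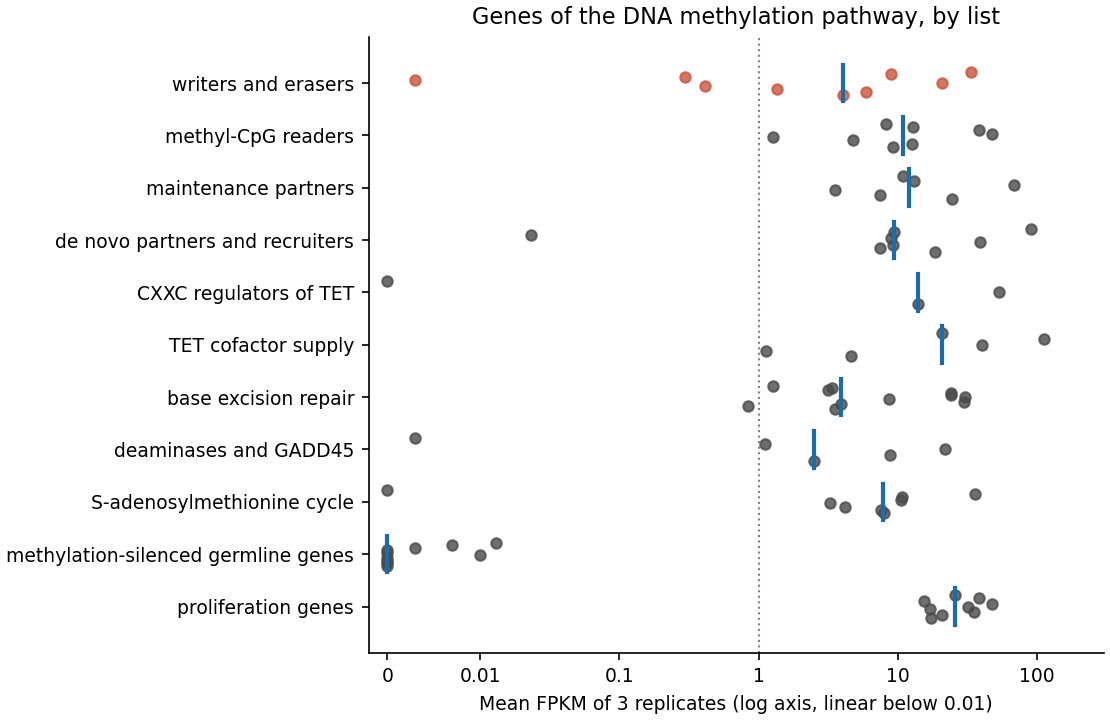
Mean FPKM of 3 replicates (horizontal, logarithmic, linear below 0.01) for each gene of the lists named at the left, 1 point per gene, with blue lines at the list medians and a dotted line at 1 FPKM. The writers and erasers in red range from 0.003 to 33.6 FPKM, and all 10 germline genes lie at the left end, at or near 0.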

How the data were processed

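RNA-seq libraries (stranded mRNA kit, Illumina) of 3 melan-a bioreplicates were used. According to the study's methods and its processing notes, the authors trimmed 10 bases from each read, aligned to mm9 with STAR 2.3.0e, removed rRNA reads and counted on Ensembl release 67 with htseq-count 0.5.3p3. The deposited values are FPKM, normalized by the authors with TMM factors, and are listed to 2 decimals. edgeR is named among the tools, but how counts became FPKM, and with which gene lengths, is not given in the sources used here.

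FPKM are not counts, so no count test was used, and a single group allows no comparison between conditions. Ratios between genes were taken within replicates as log2((FPKM + 0.1)/(FPKM + 0.1)), with an exact sign-flip permutation test. No filter on low values was applied. Library sizes were recovered from 81, 131 and 55 short genes with 1 transcript, whose values fell on whole reads at a mean distance of 0.045, 0.049 and 0.045 reads. Only 2, 3 and 2 genes with several transcripts could be checked for whole reads. All members except *Dnmt1* have several transcripts, so the lengths behind their read estimates and intervals are little checked. The estimator was tested on simulated data. Detection limits are 3 reads, and intervals cover counting error only. Positions, lengths and GC content are those of Ensembl release 65 on mm9, where 22324 of 22698 genes were found. For the GC correction a smooth trend of each replicate against GC content was removed. Copies were sought with megablast at 95% identity over 100 bases. Promoters came from RefSeq. Genes named are the 9 members, and from each list the highest, the lowest, those below 1 FPKM in a replicate and others of the lists, except that some list genes are not reported here. The members and lists were chosen with earlier results of these data known. Protein sequences were not analysed here. Python 3.11.15, pandas 2.3.3, scipy 1.17.1 and statsmodels 0.14.6 were used.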

Additional observations from a re-analysis of the deposited data

How the results depend on the processing

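The count of members at 1 FPKM in all replicates stayed at 5 or 6 under 9 alternatives. For the paralog order, 101 values under the alternatives kept their direction and their side of the rule of 2 SD, 6 no longer met it and 1 turned. The 101 include ratios against *Dnmt3l*, whose size is set by the pseudocount. *Dnmt1* over *Dnmt3l* came to 5.11, 8.35 and 11.38 with pseudocounts of 1, 0.1 and 0.01 FPKM. The log2 ratio of *Uhrf1* over *Uhrf2* turned to -0.08 per length of the longest coding transcript, because that length changes unequally for the 2 genes. *Tet2* over *Tet1* came to 0.66 with a pseudocount of 1 FPKM and to 1.07 as a median over replicates, and met the rule in neither case. With 1 replicate left out, the mean log2 ratio lay between 1.86 and 2.81 for *Tet3* over *Tet2*, between 0.97 and 1.54 for *Tet2* over *Tet1*, and between 1.40 and 2.01 for *Tdg* over *Mbd4*. Among the neighbours in the order of all members, compared after seeing the data, *Tet3* over *Tdg* turned to -0.06 per longest coding transcript and *Tet1* over *Dnmt3b* no longer met the rule after correction for GC content (0.38 ± 0.25). Levels moved by more than 1 SD in 12 cases and by less in 51, with 9 of the 12 from rescaling each replicate to a common sum, which changes the unit, and 3 (*Dnmt3a*, *Uhrf1* and *Tdg*) from the length. Depth limits *Dnmt3l*, which stayed below 3 reads. No paired analysis was possible because there is 1 group of samples and so no other group to pair it with. The ratios between genes were all taken within replicates.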
